A study of Mus musculus with 12 samples.

Results

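The genes described here encode the protein subunits of the mitochondrial ribosome, taken as every gene of the array's probe table whose symbol starts with Mrpl or Mrps followed by a digit. The platform carried 76 such genes on 132 probes. The array software tests each signal against background, and probes entered the results where that detection p-value fell below 0.05 for 3 or more of the 12 arrays. This kept 72 genes, 45 of 48 named for the large subunit and 27 of 28 named for the small subunit, on 112 probes, out of 11933 genes on the whole array. Of the 4 genes left out, Mrpl19 was detected on 1 array, and Mrpl32, Mrpl45 and Mrps14 on 0 arrays. Of the 72 kept, 71 were detected on all 12 arrays and Mrpl57 on 11. The members that passed could do so through any group, so the kept genes are not all members of the family.

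Messenger RNA was measured on Illumina bead arrays in colon of male mice aged 7 to 8 weeks, with 3 biological replicates in each of 4 groups. The groups were DAPP given before DSS, DAPP given during DSS, DSS alone, and control. DSS is dextran sulfate sodium, a polymer given to mice to injure the colon lining and produce colitis, and it was shared by both DAPP groups. DAPP is known here only by its abbreviation, with the series title naming apple peel polyphenols. In the deposited column names the earlier DAPP treatment carries the number 200 and the concurrent treatment 400, neither with a unit, so that number and timing differ together. The sources used here do not give the strain, the DSS dose or a vehicle for the control mice. Levels below are log2 of the background-corrected and normalised intensity, and differences are differences of such levels, so that 1 corresponds to a doubling. With 3 arrays a group, the p-values reflect only how far these samples spread, and the number of arrays limits the precision.

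The mitochondrial ribosome translates the few messages encoded by mitochondrial DNA, all of them for core subunits of the respiratory chain and ATP synthase. Its ribosomal RNAs come from the mitochondrial genome, whereas every one of its proteins is encoded in the nucleus, made in the cytosol and imported. Some of these proteins have bacterial counterparts and mostly carry the bacterial number, and others have been added during the evolution of mitochondria. Colonocytes draw much of their energy from oxidation of butyrate in mitochondria, and loss of mitochondrial function has been described in colitis.

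Promoter sequence is one feature that the family shares and that the choice by symbol did not use. Of the 72 kept genes, 64 had a promoter in a RefSeq table of GRCm38.p6, covering 250 bases before to 50 bases after the gene start, and the 8 without one were Mrpl4, Mrpl13, Mrpl15, Mrpl38, Mrpl54, Mrps28, Mrps34 and Mrps35. The letters CCGGAAG, a core bound by ETS factors such as GABP, occurred on either strand in 26 of the 64 (40.6%), against 9.93% of the 27025 genes with a promoter in the table. The YY1 core ATGGCGG occurred in 13 (20.3%), against 4.69% of all these genes. The NRF1 core GCATGCG, whose letters overlap their own reverse complement, occurred in 7 (10.9%), against 4.01%. At least 1 of these 3 cores stood in 36 (56.2%), against 16.6% of all. The E-box CACGTG was in 5 (7.81%), against 8.09% of all. Counted over all 32851 promoters, of which a gene can have several, the shares in the same order were 8.86%, 4.05%, 3.58%, 14.8% and 7.15%. The 27025 genes were not limited to those detected in colon, whereas the members were, and shares over the genes tested here were not counted. GABP, NRF1 and YY1 are known as regulators of nuclear genes for mitochondria, and a match of letters is a description only. The promoters of 3 members are shown because the results below turn on these genes. Capitals mark matches to the cores, of which the promoter of Mrps9 has none, that of Mrpl9 has NRF1 and YY1 cores, and that of Mrpl33 has an NRF1 core next to an ETS core.
Mrps9 (GRCm38.p6, chr1:42850983-42851282, plus strand): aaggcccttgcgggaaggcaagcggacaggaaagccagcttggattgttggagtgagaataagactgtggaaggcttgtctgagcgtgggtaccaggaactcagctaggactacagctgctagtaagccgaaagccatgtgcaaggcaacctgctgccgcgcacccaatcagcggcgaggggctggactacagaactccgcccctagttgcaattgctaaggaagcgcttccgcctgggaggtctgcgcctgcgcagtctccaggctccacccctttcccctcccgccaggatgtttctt
Mrpl9 (GRCm38.p6, chr3:94443086-94443385, plus strand): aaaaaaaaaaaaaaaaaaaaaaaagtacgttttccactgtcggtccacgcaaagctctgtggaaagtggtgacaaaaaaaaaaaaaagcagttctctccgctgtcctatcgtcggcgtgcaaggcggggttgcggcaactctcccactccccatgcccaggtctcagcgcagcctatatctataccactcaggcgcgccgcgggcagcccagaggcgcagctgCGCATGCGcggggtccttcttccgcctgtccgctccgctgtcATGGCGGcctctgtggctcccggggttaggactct
Mrpl33 (GRCm38.p6, chr5:31613701-31614000, plus strand): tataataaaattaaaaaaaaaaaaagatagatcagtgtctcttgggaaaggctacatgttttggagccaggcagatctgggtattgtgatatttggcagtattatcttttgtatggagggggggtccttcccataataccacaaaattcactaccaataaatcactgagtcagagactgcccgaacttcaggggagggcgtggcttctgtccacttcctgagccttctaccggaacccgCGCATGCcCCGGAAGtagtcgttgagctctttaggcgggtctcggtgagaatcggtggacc

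The arrays held 17650 to 21444 detected probes each. Raw mean signal was 601 to 728 on the DAPP arrays and 433 to 507 on the DSS and control arrays, so that raw brightness and DAPP treatment cannot be told apart. The first array of DAPP before DSS stood apart from the rest. Its correlation with the other arrays over all genes was 0.828 to 0.914, whereas the other 11 arrays correlated with each other at 0.916 to 0.984. Over the 72 members its correlation with the others was 0.891 to 0.928, against 0.965 to 0.993 among the other 11. Differences that rest on this group are therefore also given without that array, where the group has 2 arrays. On that array the mean of B and plasma cell markers, of which 3 of 7 could be tested, was 11.96, against 9.38 to 10.44 on the others. That of T cell markers was 8.76, against 5.33 to 7.93, and that of colon epithelium markers 11.04, against 11.71 to 12.41. The part of these markers in the values of that array was not tested. Of 10 colon epithelium markers 9 could be tested, and 8 or 9 were detected on all arrays of each group.

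As a whole the family stayed within a narrow band across the 4 groups. The median level of the 72 members was 10.75, 10.23 and 10.59 on the DAPP before DSS arrays, 10.30, 10.56 and 10.51 on the DAPP during DSS arrays, 10.73, 10.50 and 10.74 on the DSS arrays, and 10.66, 10.69 and 10.62 on the control arrays. The control arrays lay closest together, and the ranges of all 4 groups except DAPP during DSS and control overlapped. Pooled within groups, the SD of this per-array median was 0.17. The median over members of the fitted difference was between -0.12 and 0.03 in all 6 comparisons between groups, no further from 0 than that SD. The medians for DAPP before DSS without its first array were -0.19 against DSS, -0.13 against control and -0.04 against DAPP during DSS, of which the first is further from 0 than the SD. The SD is a spread of single arrays, that first array included, whereas the differences are between group means. It therefore does not measure the precision of these medians. In bulk colon, fewer cells of a type and less RNA per cell cannot be told apart.

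**Figure D1:**
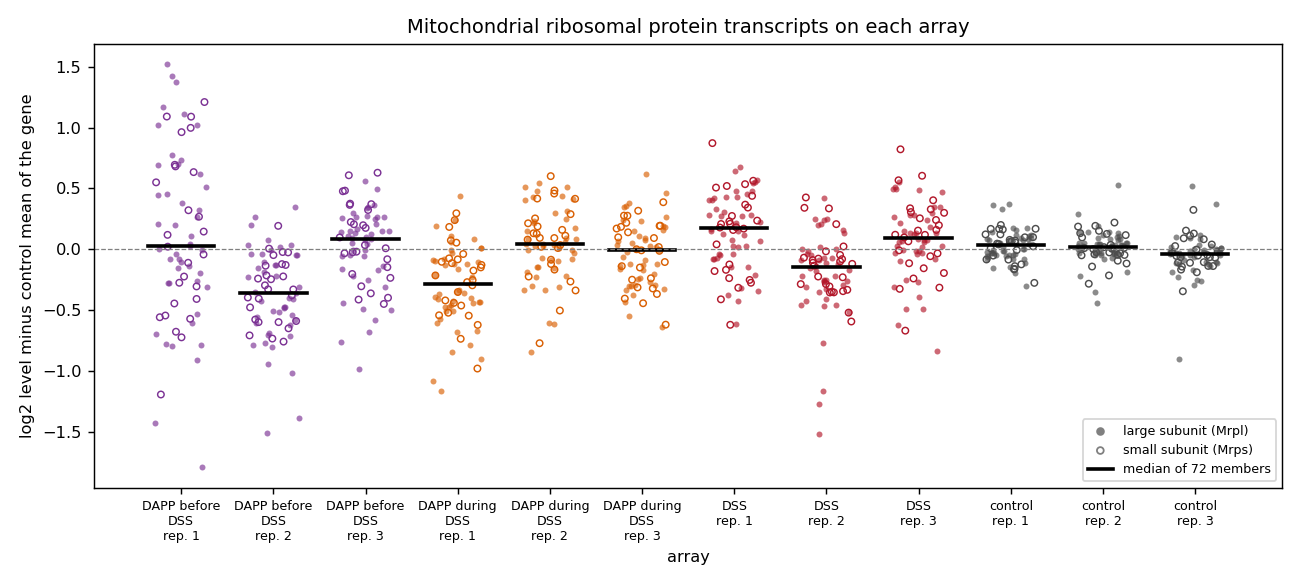
Log2 level of each of the 72 members minus that gene's control mean, by array, with filled points for the large subunit, open points for the small subunit and a bar at the median. The first DAPP before DSS array has the widest spread, and the control arrays, set against their own mean, have the narrowest.

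The first array of DAPP before DSS did not shift the family one way but spread it out. It held the highest value of the 12 arrays for 26 members and the lowest for 12 members. The interquartile range of the members' deviations from their control mean was 0.95 there and 0.12 to 0.49 on the other arrays. Over all genes it was 1.37 there and 0.24 to 0.77 on the other arrays, so the wide spread was not particular to the family. The second array of that group held the lowest value of 12 for 27 members, and its member median was 0.35 below the control level. Within groups, the median SD of a member was 0.41 for DAPP before DSS, 0.19 for DAPP during DSS, 0.22 for DSS and 0.12 for control. All 11933 genes had higher or similar medians of 0.46, 0.20, 0.30 and 0.20 in the same order.

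A test for any difference among the 4 groups called 0 of the 72 members (limma F test, Benjamini-Hochberg adjusted p under 0.05 over all 11933 genes), and 3 had an unadjusted p under 0.05. Over all genes the same test called 808, or 6.77%, and 19.3% had an unadjusted p under 0.05. The lowest adjusted p of a member was 0.142, for Mrps9. Without the first DAPP before DSS array, Mrpl1 and Mrpl50 were called, against 11.3% of all genes.

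DSS alone left no member called against control. limma gave 0 of 72 members an adjusted p under 0.05, whereas 6.71% of all genes were called, 3.91% higher and 2.81% lower. An unadjusted p under 0.05 was reached by 2 members that were higher and 2 that were lower, against 19.7% of all genes. The member differences ran from -0.68 to 0.53 with a median of 0.01, and the median over all genes was -0.04. No member differed by more than 1 log2 unit, although 1176 genes of the array did. The 95% interval of the difference lay within 1 log2 unit of 0 for 62 of the 72 members, so that larger differences of the other 10 are not bounded by these arrays. Differences over 0.5 were seen for 7 members, or 9.72%, against 28.9% of all genes.

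**Figure D2:**
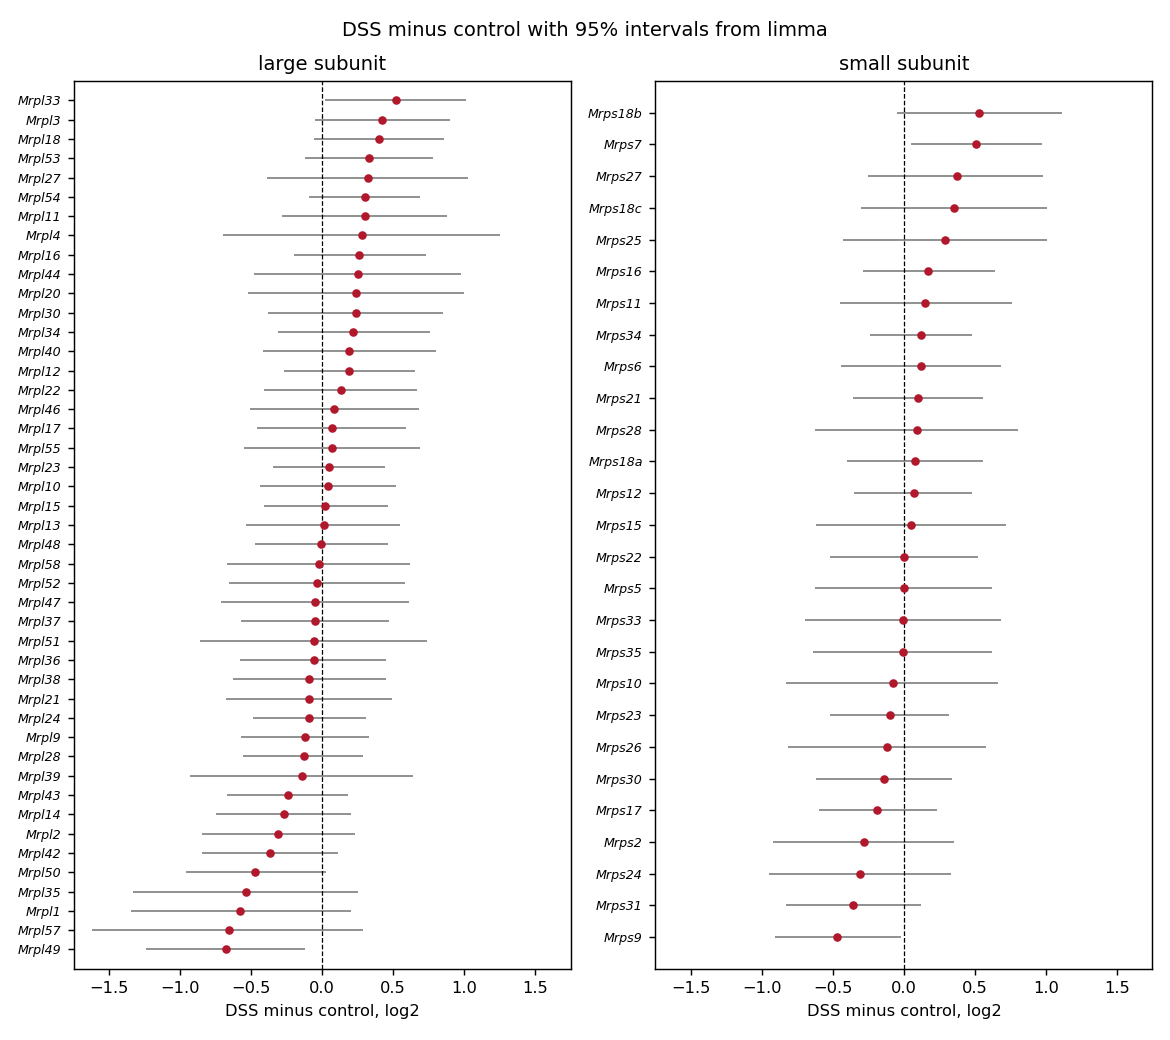
Fitted difference of DSS minus control in log2 units for each member (points) with its 95% interval from limma (lines), large subunit left and small subunit right, sorted by the difference. Mrpl33 and Mrps7 are the members whose interval lies above 0, and Mrpl49 and Mrps9 those whose interval lies below 0, none with an adjusted p under 0.05.

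Single members lay apart between DSS and control in either direction. The groups did not overlap for 9 members that were higher and 9 that were lower in DSS, 18 of 72 in all, and over all genes the groups did not overlap for 30.5%. The highest differences were those of Mrps18b, Mrpl33, Mrps7, Mrpl3 and Mrpl18, and the lowest among members detected on all arrays were those of Mrpl49, Mrpl1, Mrpl35, Mrpl50 and Mrps9.

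Mrpl33, a small protein of the large subunit with a bacterial counterpart, was at 13.23, 12.48 and 12.39 in DAPP before DSS, 12.56, 12.61 and 12.51 in DAPP during DSS, 12.77, 12.55 and 12.61 in DSS and 12.05, 12.22 and 12.12 in control. All 9 arrays of mice given DSS were above the 3 control arrays. DSS minus control was 0.52 ± 0.23 (SE; 95% interval 0.02 to 1.01; limma adjusted p = 0.229). DAPP before DSS minus control was 0.57, and DAPP during DSS minus control was 0.43, with the same control arrays in all 3 differences and adjusted p in limma of 0.129 and 0.316. Without the first DAPP before DSS array, where the gene was highest, DAPP before DSS minus control was 0.31. A second kept probe of the gene gave 0.48 for DSS minus control. Without the first DAPP before DSS array, which lowers the shared estimate of the spread, Mrpl33 was the only member called for DSS minus control, at an adjusted p of 0.0381 in limma, against 12.8% of all genes. With each probe fitted on its own, 0 member probes were called for DSS minus control without that array, against 9.97% of all probes.

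Mrps7, which sits in the head of the small subunit, was at 11.37, 10.67 and 11.18 in DAPP before DSS, 10.75, 11.11 and 10.91 in DAPP during DSS, 11.23, 11.12 and 11.26 in DSS and 10.76, 10.70 and 10.63 in control. The DSS arrays were all above the control arrays, and both DAPP groups reached down to the control range. DSS minus control was 0.51 ± 0.21 (SE; limma adjusted p = 0.197). Its second kept probe gave -0.12, so the gene's probes did not go the same way.

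Mrps18b, from a set of mitochondrial paralogs of bacterial S18, was at 10.77, 10.41 and 11.03 in DSS and at 10.37, 10.07 and 10.18 in control. The lowest DSS array stood just above the highest control array. Its difference of 0.53 ± 0.27 (SE) had an adjusted p of 0.308 in limma, and its other 2 kept probes gave 0.44 and 0.61. Mrpl3, a protein near the peptidyl transferase centre, differed by 0.42 between DSS and control, and Mrpl18 by 0.40, both without overlap of the groups and both with an adjusted p above 0.3 in limma. The second kept probe of Mrpl3 also gave 0.42. That of Mrpl18, detected on 7 arrays, went the other way at -0.78, with 5.11, 5.25 and 5.30 in DSS against 5.84, 5.56 and 6.60 in control.

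Mrpl49, a large-subunit protein of the mitochondria-specific kind, was at 9.60, 9.61 and 10.23 in DAPP before DSS, 9.92, 10.24 and 10.09 in DAPP during DSS, 9.78, 9.23 and 10.13 in DSS and 10.32, 10.50 and 10.37 in control. All arrays of mice given DSS were below the control arrays, and the DSS arrays had an SD of 0.45. DSS minus control was -0.68 ± 0.26 (SE; 95% interval -1.24 to -0.12; limma adjusted p = 0.158). The gene's other 3 kept probes gave -0.21 to -0.01.

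Mrpl1, the protein of the mobile stalk near the exit of spent transfer RNA, was at 9.51, 9.47 and 9.10 in DSS and at 9.79, 10.07 and 9.95 in control. Its difference was -0.58 ± 0.36 (SE; limma adjusted p = 0.430), and its other 2 kept probes gave -0.09 and -0.29. The probe at -0.29 was detected on 3 arrays. Mrpl35, a large-subunit protein with a bacterial counterpart, was at 7.21, 5.79 and 6.57 in DSS and 7.14, 6.62 and 7.43 in control. Its groups overlapped, and its 95% interval of -1.33 to 0.25 was among the wide ones.

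Of the comparisons with control, that of DAPP during DSS held the single call in the family. It was Mrps9, 1 of 72 members, lower in DAPP during DSS by limma's adjusted p, and over all genes 7.68% were called, 3.15% lower and 4.53% higher. An unadjusted p under 0.05 was reached by 4 members, Mrps9 among them and all lower, against 20.7% of all genes. The member differences ran from -0.79 to 0.43 with a median of -0.11, and the median over all genes was -0.03. The groups did not overlap for 5 members that were higher and 17 that were lower in DAPP during DSS, against 18.8% and 22.1% of all genes.

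Mrps9, a small-subunit protein with a bacterial counterpart, was at 10.74, 10.45 and 10.59 in DAPP before DSS, 10.06, 10.27 and 10.42 in DAPP during DSS, 10.42, 10.93 and 10.38 in DSS and 11.12, 11.02 and 10.99 in control. The 3 control arrays were the highest of the 12, and the DAPP during DSS arrays did not reach the DAPP before DSS arrays. In DAPP during DSS the gene fell by 0.79 ± 0.20 on the log2 scale against control (SE; 95% interval -1.23 to -0.34), or to 0.579 of the control level, with an adjusted p of 0.035 in limma. DSS minus control was -0.47 and DAPP before DSS minus control -0.45, with adjusted p of 0.229 and 0.187 in limma and the same control arrays in each difference. The second of these was -0.52 without the first DAPP before DSS array. Mrps9 has 1 kept probe, so no second probe could be compared. The call was lost when any 1 of the 3 control or 3 DAPP during DSS arrays was left out, with adjusted p of 0.0682 to 0.128 in limma and differences of -0.87 to -0.69. It was also lost with equal array medians in place of quantile normalisation, at an adjusted p of 0.0752, and with the lowest-mean probe of each gene, at 0.0528.

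Mrpl9, whose bacterial counterpart lies at the base of the stalk formed by Mrpl1, was at 10.11, 10.61 and 10.44 in DAPP before DSS, 10.24, 10.42 and 10.59 in DAPP during DSS, 10.81, 10.73 and 11.17 in DSS and 10.97, 11.16 and 10.94 in control. All 6 arrays with DAPP were below all 6 arrays without it. DAPP during DSS minus control was -0.61 ± 0.21 (SE; limma adjusted p = 0.106), and DAPP before DSS minus control was -0.63 ± 0.21 (SE; limma adjusted p = 0.0733). DSS minus control was -0.12, with a 95% interval of -0.57 to 0.33. A second probe of the gene, detected on all arrays, gave -0.06 for DAPP during DSS minus control and -0.05 for DAPP before DSS minus control. Without the first DAPP before DSS array, DAPP before DSS minus control was -0.49 (limma adjusted p = 0.128), and the second probe gave 0.13.

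**Figure D3:**
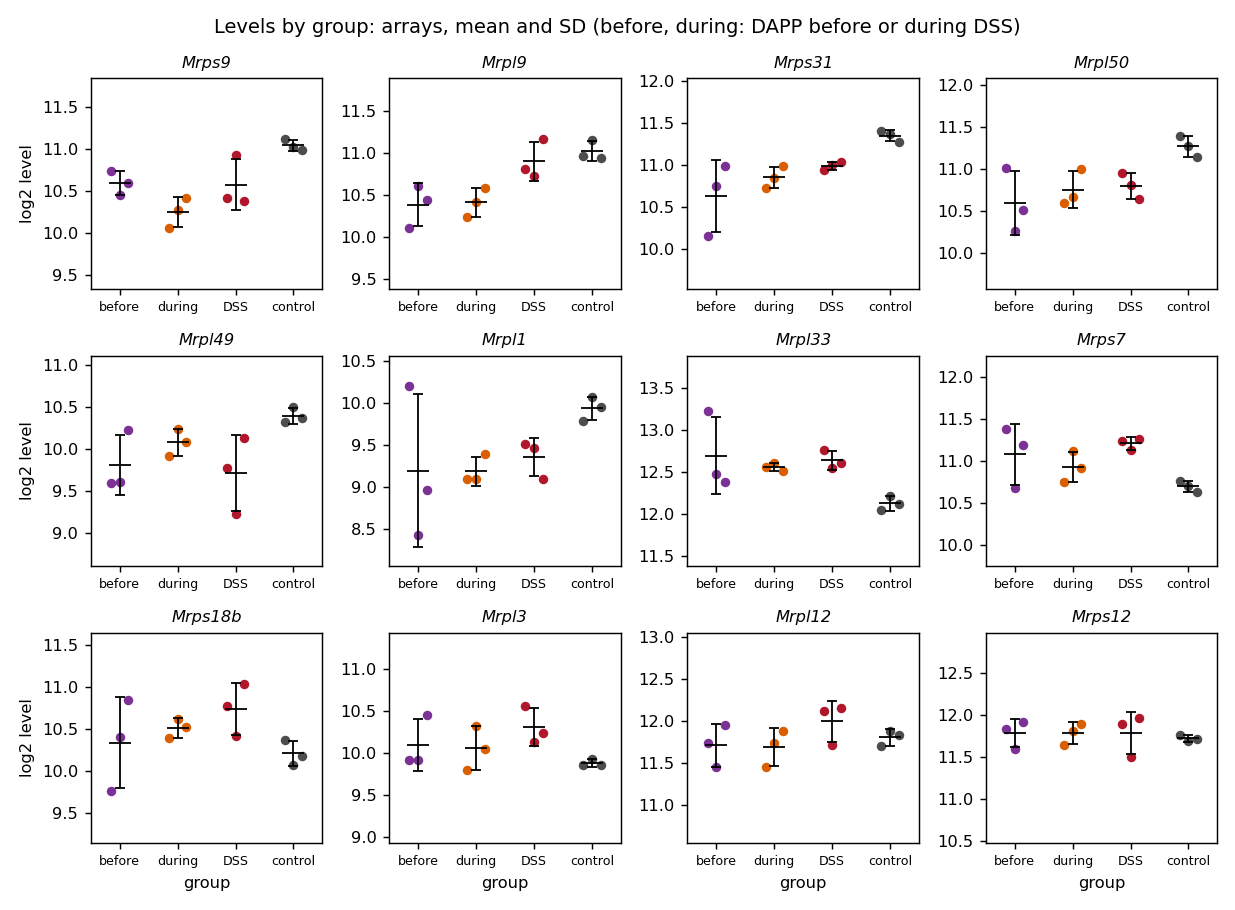
Log2 level of 12 named members by group, with a point for each array, a long bar at the mean and error bars of 1 SD (n = 3 in each group). Mrps9, Mrps31, Mrpl50 and Mrpl49 lie below control in all groups given DSS, Mrpl33 lies above it, and Mrpl9 is lower in both DAPP groups.

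For DAPP before DSS against control, 0 of 72 members were called in limma, and 11.2% of all genes were, 4.94% lower and 6.27% higher. An unadjusted p under 0.05 was seen for 8 members that were lower and 1 that was higher, against 26.4% of all genes. The groups did not overlap for 2 members that were higher and 11 that were lower, against 14% and 15.2% of all genes (29.2% together). The member differences ran from -0.95, for Mrpl35, to 0.57, for Mrpl33, and their median was -0.06, against -0.05 over all genes. The sign of that median turned with equal array medians, to 0.05. With that group's first array left out, the differences ran from -1.24, for Mrpl1, to 0.41, for Mrps18b, with a median of -0.13, and 11 members, all lower, had an unadjusted p under 0.05, against 27.4% of all genes. The 2 remaining arrays did not overlap with control for 4 members that were higher and 20 that were lower, against 20.6% and 24.9% of all genes.

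The members nearest to the threshold in that comparison were Mrps31, Mrpl9, Mrpl50 and Mrpl42. Mrps31, a small-subunit protein without a bacterial counterpart, was at 10.16, 10.76 and 10.99 in DAPP before DSS, 10.73, 10.85 and 10.99 in DAPP during DSS, 10.94, 11 and 11.04 in DSS and 11.41, 11.37 and 11.28 in control. Control stood above every array of mice given DSS. DAPP before DSS minus control was -0.72 ± 0.22 (SE; limma adjusted p = 0.0552), and the gene's other 2 kept probes gave -0.84 and -0.77. The first DAPP before DSS array was the lowest of the 12 for all 3 probes, and without it the difference was -0.48 ± 0.17 (SE; limma adjusted p = 0.0865) and the other 2 probes gave -0.34 and -0.11.

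Mrpl50, a mitochondria-specific protein of the large subunit, was at 11.01, 10.26 and 10.51 in DAPP before DSS, 10.59, 10.66 and 11 in DAPP during DSS, 10.95, 10.81 and 10.64 in DSS and 11.39, 11.27 and 11.14 in control. No array of mice given DSS reached the control range. DAPP before DSS minus control was -0.67 ± 0.23 (SE; limma adjusted p = 0.0787), and without the first DAPP before DSS array it was -0.88 ± 0.19 (SE; limma adjusted p = 0.0136). Mrpl1 was also called without that array, at -1.24 ± 0.22 (SE; limma adjusted p = 0.0045), with 12.9% of all genes called in that fit. With the array included, where Mrpl1 was at 10.20 against 8.43 and 8.96 on the other arrays of the group, its difference was -0.74 and its adjusted p in limma was 0.214. The other 2 kept probes of Mrpl1 gave -0.62 and -0.80 without the array and 0.05 and -0.77 with it. The probe at -0.80 and -0.77 was detected on 3 arrays, at a mean level of 4.95, close to background.

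Mrpl42 was at 10.18, 10.15 and 10.37 in DAPP before DSS, 10.36, 10.64 and 10.54 in DAPP during DSS, 10.83, 10.10 and 10.56 in DSS and 10.67, 11.06 and 10.87 in control. The DAPP before DSS and DAPP during DSS arrays were below all control arrays, and the DSS arrays overlapped with control. DAPP before DSS minus control was -0.63 ± 0.22 (SE; limma adjusted p = 0.087), and -0.60 without the first array of DAPP before DSS.

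Leaving out the first DAPP before DSS array also raised the calls for DAPP during DSS against control to 4, namely Mrps9, Mrpl1, Mrpl9 and Mrps31, all lower, with 14.4% of all genes called. The array does not enter that difference and acts through the shared estimate of the spread. With each probe fitted on its own, 2 member probes were called for that difference without the array, against 12.1% of all probes.

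Markers of the colon's cell types differed between the groups in the same comparisons. The 9 tested colon epithelium markers averaged 11.04 to 12.27 in DAPP before DSS, 12.08 to 12.19 in DAPP during DSS, 11.71 to 12.16 in DSS and 12.28 to 12.41 in control. All 9 arrays of mice given DSS were thus below control, the nearest at 12.27 against 12.28. Single markers did not all go that way. Against control, 2 of 9 were above 0 for DSS, 4 for DAPP during DSS and 0 for DAPP before DSS. The medians were -0.24, -0.05 and -0.58, the last 0.05 without the first DAPP before DSS array. In limma 1 marker was called, Car1, lower in DAPP before DSS (11.1%, against 11.2% of all genes). The mean level of the tested neutrophil markers, 9 of 10, was 9.26 to 10.15 in DAPP before DSS, 8.75 to 9.18 in DAPP during DSS, 8.32 to 9.85 in DSS and 5.60 to 5.81 in control, where Csf3r, Cxcr2, Ngp and Il1r2 were detected on no array. Macrophage markers, 7 of 8, averaged 10.78 to 11.02, 10.89 to 10.95 and 10.40 to 11.34 in the same groups given DSS and 9.24 to 9.41 in control. The 8 smooth muscle markers averaged 10.27 to 10.76 in DAPP before DSS, 10.12 to 10.68 in DAPP during DSS, 9.89 to 10.44 in DSS and 11.48 to 11.65 in control. T cell markers, 5 of 7, averaged 7.32 to 8.76 in DAPP before DSS, 6.96 to 7.47 in DAPP during DSS, 6.82 to 7.93 in DSS and 5.33 to 6.09 in control. The part of these markers in the values of Mrps9 and the other members was not tested.

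Genes of the exocrine pancreas also varied between arrays, with a mean of 15 of 18 tested markers at 14, 12.6 and 13.36 in DAPP before DSS, 9.35, 6.71 and 14.40 in DAPP during DSS, 7.11, 13.54 and 14.16 in DSS and 8.75, 7.11 and 7.03 in control. The list includes Zg16, which colon goblet cells also make. With the mean of these markers as a covariate, Mrps9 was again the member called for DAPP during DSS against control. In that fit 6.96% of all genes were called.

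No member was called between either DAPP group and DSS alone. The 95% interval of the difference lay within 1 log2 unit of 0 for 64 of 72 members in DAPP before DSS minus DSS and for 66 in DAPP during DSS minus DSS. For DAPP before DSS minus DSS, 0 members were called in limma and 0 of all genes (0%). An unadjusted p under 0.05 was seen for 1 member, against 4.48% of all genes. It was Mrpl9, at -0.51 ± 0.21 (SE; 95% interval -0.96 to -0.06; limma adjusted p = 0.851). The groups did not overlap for 0 members that were higher and 2 that were lower, Mrpl9 and Mrps34, against 3.71% and 2.77% of all genes (6.48% together). The member median was -0.11, against 0.00 over all genes. It ranged from -0.21 to 0.09 when 1 array was left out, with the positive value arising without the second DAPP before DSS array. Without the first, the median was -0.19 against -0.01 over all genes, 9 of 72 differences (12.5%) were above 0 against 49.2%, and Mrpl9 was at -0.37. The 2 remaining arrays did not overlap with DSS for 0 members that were higher and 13 that were lower, against 8.35% and 7.93% of all genes, and 2 members had an unadjusted p under 0.05, against 5.25%.

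For DAPP during DSS minus DSS, 0 members were called in limma and 0 of all genes (0%), and 1 member, again Mrpl9, had an unadjusted p under 0.05, against 2.66% of all genes. Mrpl9 was at -0.49 ± 0.21 (SE; limma adjusted p = 1). The spread of the family was narrow, with differences from -0.49 to 0.40, none over 0.5. Of the 72 differences 14 (19.4%) were above 0, against 50.5% over all genes, and their median was -0.12 against 0.00. The groups did not overlap for 0 members that were higher and 7 that were lower, against 6.09% and 5.22% of all genes. These were Mrpl9, Mrpl11, Mrpl27, Mrpl28, Mrps7, Mrps23 and Mrps34. The median stayed below 0, between -0.20 and -0.08 under the other processing settings and between -0.21 and -0.03 when 1 array was left out. It is within the SD of 0.17 that the per-array median had within groups, which is a spread of single arrays and not the precision of this median. Both DAPP comparisons share the DSS arrays.

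DAPP before DSS against DAPP during DSS gave 0 called members in limma and 0 of all genes (0%), and 0 members had an unadjusted p under 0.05, against 4.06% of all genes. The groups did not overlap for 1 member, Mrps9, which was higher in DAPP before DSS by 0.34, against 4.05% of all genes for that direction, 3.85% for the other and 7.9% together. Its adjusted p was 0.842 in limma. The member median was 0.03, against -0.01 over all genes, and the differences ran from -0.64 to 0.53. With the first DAPP before DSS array left out, the median was -0.04, the differences ran from -0.50, for Mrpl1, to 0.27, for Mrps9, and 1 member had an unadjusted p under 0.05, against 3.05% of all genes. The 2 remaining arrays then did not overlap with DAPP during DSS for 1 member that was higher and 7 that were lower, against 8.05% and 10.2% of all genes.

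**Figure D4:**
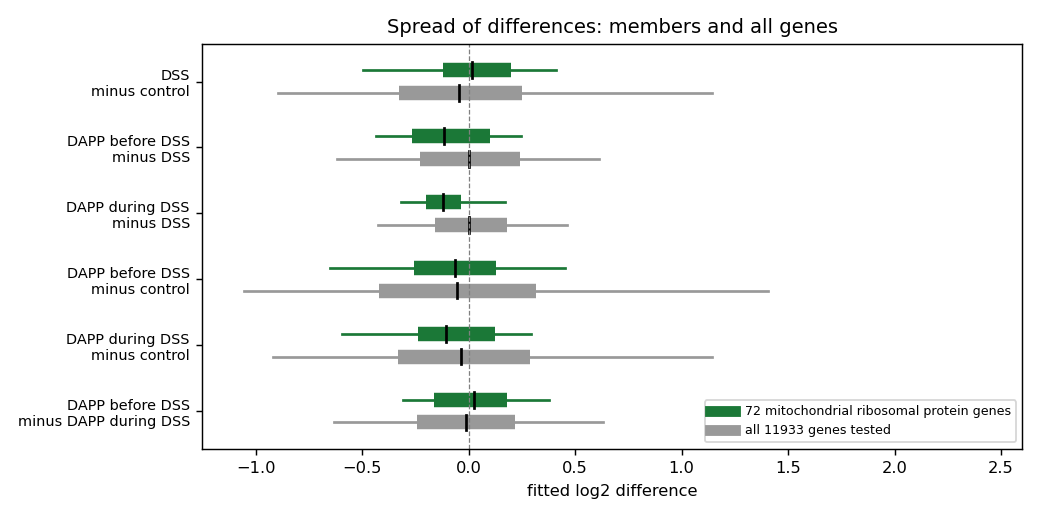
Distribution of fitted log2 differences for the 72 members (green) and all 11933 genes (grey) in the 6 comparisons, with a black bar at the median, a box over the middle 50% of genes and a line between the 5th and 95th percentiles. The members' lines are shorter than those of all genes in each comparison.

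The share of members with large differences was below that of all genes in each comparison. The members' share of differences over 0.5 log2 units was 6.94% for DAPP before DSS minus DSS, 0% for DAPP during DSS minus DSS, 12.5% for DAPP before DSS minus control and 9.72% for DAPP during DSS minus control. The same shares over all genes were 16.9%, 7.32%, 38.2% and 30.4%. Differences over 1 log2 unit were seen for 0 members in each of the 6 comparisons. They were seen for 2 members without the first DAPP before DSS array, Mrpl1 at -1.24 and Mrpl35 at -1.03, in DAPP before DSS minus control (2.78%), against 11.5% of all genes, and for 0 in the other 5. The shares over 0.5 for DAPP before DSS were then 1.39% against DSS and 9.72% against control, with 9.98% and 33.4% of all genes. Members also had smaller SDs within groups than genes in general, and their 95% intervals were shorter, with a median half-width of 0.54 against 0.63. Their levels were higher, with a median of 10.56 against 8.02 over all genes. The part of level in these shares and spreads was not tested.

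Members with defined roles in translation gave values of the same kind. Mrpl12, the stalk protein that recruits translation factors and also binds the mitochondrial RNA polymerase, averaged 11.72 ± 0.26 in DAPP before DSS, 11.69 ± 0.22 in DAPP during DSS, 12 ± 0.24 in DSS and 11.81 ± 0.10 in control (SD over the 3 arrays of a group). Its DSS minus control was 0.19 with a 95% interval of -0.27 to 0.65. Mrps12, the decoding centre protein, averaged 11.78 ± 0.17 in DAPP before DSS, 11.78 ± 0.13 in DAPP during DSS, 11.78 ± 0.25 in DSS and 11.72 ± 0.04 in control (SD over the 3 arrays of a group). Its means differed less than its arrays, and the interval of DSS minus control was -0.35 to 0.48.

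Mrps16 and Mrps22, small-subunit proteins whose human counterparts are mutated in inherited disorders of mitochondrial translation, were at means of 10.37 and 9.67 in DSS against 10.19 and 9.67 in control. Their 95% intervals for DSS minus control were -0.29 to 0.64 and -0.52 to 0.52. Mrpl44, a large-subunit protein with a fold related to ribonuclease III, was at 7.52, 8.82 and 9.10 in DAPP before DSS and between 8.86 and 9.42 on the other 9 arrays, so that the first DAPP before DSS array alone was far below. Mrps30, which carries a small-subunit name but sits in the large subunit, was at 11.60, 10.88 and 10.98 in DAPP before DSS, 10.76, 11.06 and 10.97 in DAPP during DSS, 11.16, 11.24 and 11.04 in DSS and 11.45, 11.29 and 11.12 in control. Its highest value was on the first DAPP before DSS array, and its groups given DAPP during DSS and control did not overlap.

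Mrps24, a small-subunit protein with a bacterial counterpart, was at 13.81, 12.47 and 12.77 in DAPP before DSS, 12.44, 12.91 and 12.74 in DAPP during DSS, 12.90, 12.85 and 12.85 in DSS and 13.22, 13.20 and 13.11 in control. The first DAPP before DSS array was above the control arrays, whereas the other 8 arrays of mice given DSS were below them. Mrpl57, read close to background, averaged 5.87 ± 0.25 in DAPP before DSS, 5.78 ± 0.50 in DAPP during DSS, 5.70 ± 0.75 in DSS and 6.36 ± 0.78 in control (SD over the 3 arrays of a group). It was not detected on the second DSS array, and its DSS minus control of -0.66 was lower than that of all members but Mrpl49. Mrps2 averaged 7.58 ± 0.52 in DAPP before DSS, 7.82 ± 0.35 in DAPP during DSS, 7.41 ± 0.29 in DSS and 7.70 ± 0.25 in control (SD over the 3 arrays of a group), a spread within groups as large as that between them.

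The large and the small subunit were set beside each other. For DSS minus control the median was 0.01 over 45 large-subunit members and 0.05 over 27 small-subunit members. For DAPP during DSS minus DSS it was -0.12 in each, with 9 of 45 and 5 of 27 differences above 0. For DAPP during DSS minus control it was -0.13 in the large and 0.01 in the small subunit, and for DAPP before DSS minus control -0.08 and -0.03, or -0.15 and -0.12 without the first DAPP before DSS array. The assignment follows the gene symbols, and Mrps30 and Mrps18a are known to belong to the large subunit.

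Members with numbers in the bacterial range, up to 36 for Mrpl and 21 for Mrps, were set beside those with higher numbers. The cut follows the number alone, so that Mrps24, described above as having a bacterial counterpart, counts among the higher numbers. For DSS minus control 27 of the 41 members with bacterial numbers and 11 of the 31 with higher numbers were above 0, with medians of 0.07 and -0.04. For DAPP during DSS minus control 22 of 41 and 8 of 31 were above 0, with medians of 0.01 and -0.14. Both comparisons share the control arrays, and the difference between these classes was not tested.

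Of the 72 genes, 27 had more than 1 kept probe, which allowed a check within the gene. Probes of 1 gene gave differences of opposite sign for 10 of 27 members in DSS minus control and for 6 of 27 in DAPP during DSS minus control, in no case with an unadjusted p under 0.05 on both sides. The median gap between the highest and lowest probe of a gene was 0.23 and 0.21 log2 units in these comparisons. It reached 1.70 for DSS minus control, for Mrpl15, which has 6 kept probes. Of all 112 kept probes, 1 was called in DAPP during DSS minus control, that of Mrps9, against 5.59% of all probes. DSS minus control had 0, against 4.7% of all probes, and DAPP before DSS minus control had 0, against 8.12%. Without the first DAPP before DSS array, 2 member probes were called in DAPP before DSS minus control, against 10.4% of all probes.

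**Figure D5:**
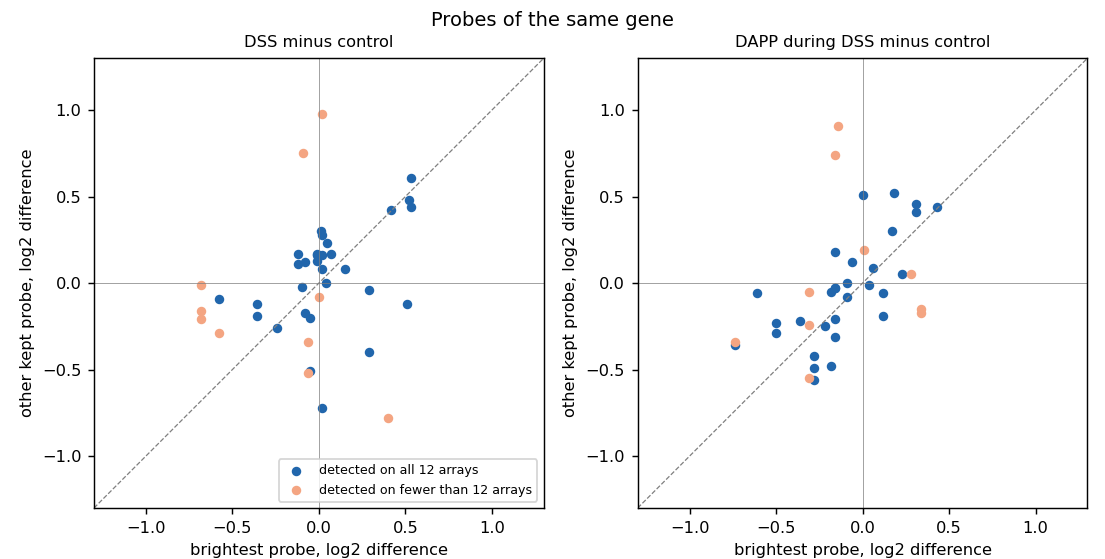
Log2 difference of the brightest kept probe of a gene (horizontal axis) against each other kept probe of the same gene (vertical axis), for DSS minus control and for DAPP during DSS minus control, with blue points for other probes detected on all 12 arrays and orange points for those detected on fewer. Points far from the dashed line of equal values, some of them orange, show genes whose probes disagree.

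Mitoribosomal proteins that carry other names behaved in the same range. Of 5 listed, 4 could be tested. In limma 0 were called in any of the 6 comparisons, against 0% to 11.2% of all genes. An unadjusted p under 0.05 was reached by 0, against 2.66% to 26.4% of all genes, and 4 genes are too few to be set apart from these shares. Without the first DAPP before DSS array, 1 reached such a p in DAPP before DSS minus DSS, against 5.25% of all genes. Dap3, a GTP-binding protein of the small subunit first described in cell death, was at 11.57, 11.49 and 12.05 in DAPP before DSS, 11.65, 11.74 and 11.84 in DAPP during DSS, 11.81, 11.84 and 11.86 in DSS and 11.92, 12.06 and 12.19 in control. DAPP during DSS and DSS both lay below control, and DSS minus control was -0.22 ± 0.19 (SE; limma adjusted p = 0.614). Ptcd3 and Chchd1 had DSS minus control of -0.24 ± 0.23 and 0.06 ± 0.27 (SE). Gadd45gip1, detected on 3 arrays, had 0.05 ± 0.31 (SE).

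Among 13 tested of 15 mitochondrial translation factors, 1 (7.69%) was lower in DAPP before DSS than in control, where 11.2% of all genes were called. In the other 5 comparisons 0 were called in limma and 0 to 2 had an unadjusted p under 0.05, against 2.66% to 20.7% of all genes. The called gene was Rmnd1, a protein needed for mitochondrial translation, at 8.95, 8.61 and 8.80 in DAPP before DSS, 9.05, 8.93 and 8.82 in DAPP during DSS, 8.98, 8.58 and 8.98 in DSS and 9.40, 9.41 and 9.74 in control. Control stood above all other arrays, and DAPP before DSS minus control was -0.73 ± 0.20 (SE; limma adjusted p = 0.0341), or -0.81 without the first DAPP before DSS array. The call was lost when any 1 control array or either other DAPP before DSS array was left out (adjusted p in limma of 0.0604 to 0.136), and when DAPP during DSS array 2 or 3 was (0.0576 and 0.0532). It was also lost with the pancreas markers as a covariate (0.273), with equal array medians (0.0792) and with only the groups compared (0.135). With the mean of the gene's probes the difference was -0.30, and with its lowest-mean probe 0.12. The elongation factors Tufm and Gfm1 had DSS minus control of -0.11 ± 0.32 and 0.21 ± 0.31 (SE). The list's median in DAPP before DSS minus control was -0.35, beside -0.05 over all genes, and -0.10 without the first DAPP before DSS array.

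Among 14 tested of 17 mitochondrial aminoacyl-tRNA synthetases, 1 (7.14%) was lower in DAPP during DSS than in control, a share close to the 7.68% of all genes. In the other 5 comparisons 0 were called in limma and 0 to 3 had an unadjusted p under 0.05, against 2.66% to 26.4% of all genes. Fars2, which charges mitochondrial transfer RNA with phenylalanine, was at 10.22, 9.80 and 10.26 in DAPP before DSS, 9.73, 9.79 and 9.65 in DAPP during DSS, 10.11, 10.06 and 9.87 in DSS and 10.60, 10.54 and 10.86 in control. All arrays of mice given DSS were below control, with DAPP during DSS the lowest. DAPP during DSS minus control was -0.94 ± 0.19 (SE; limma adjusted p = 0.0108). The call was lost without the third control array (adjusted p = 0.0565 in limma) and without the third DAPP during DSS array (0.053).

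Among 32 tested of 35 genes for mitochondrial transcription, ribosomal RNA and ribosome assembly, 2 (6.25%) were lower in DAPP before DSS than in control, against 11.2% of all genes called. In the other 5 comparisons 0 were called in limma and 1 to 5 had an unadjusted p under 0.05, against 2.66% to 20.7% of all genes. The called genes were Mterf1a at -1.04 ± 0.23 and Mterf1b at -1.05 ± 0.23 (SE; limma adjusted p = 0.0115 and 0.0117), near-identical copies of a mitochondrial transcription termination factor whose signals cannot be told apart. Mterf1a was at 8.45, 8.18 and 8.06 in DAPP before DSS, 8.62, 8.60 and 9 in DAPP during DSS, 9.05, 8.97 and 8.40 in DSS and 9.34, 9.10 and 9.36 in control. Control was above the other groups. Without the first DAPP before DSS array the differences were -1.15 and -1.12, and with the pancreas markers as a covariate the adjusted p in limma were 0.0856 and 0.0976. The call of Mterf1b was also lost without the second control array (0.0511). Tfam, which packages mitochondrial DNA and starts its transcription, Polrmt, the mitochondrial RNA polymerase, and Lrpprc, which stabilises mitochondrial messages, had DSS minus control of -0.27 ± 0.24, -0.34 ± 0.27 and -0.22 ± 0.28 (SE).

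In 2 related families the share of genes called was below that of all genes, which was 11.2% for DAPP before DSS, 7.68% for DAPP during DSS and 6.71% for DSS against control. Of 55 tested cytosolic ribosomal proteins, 1 (1.82%) was lower than control in each of these groups. This was Rpl22, named after its values were seen, at differences of -0.76, -1.29 and -0.90 with limma adjusted p of 0.0467, 0.00386 and 0.0304. The call in DSS was lost without any 1 control array, DSS array 1 or 2, or DAPP during DSS array 2 or 3, and that in DAPP before DSS without any 1 array other than DSS array 1 and DAPP before DSS array 1. With equal array medians the adjusted p in limma were 0.223 for DAPP before DSS and 0.123 for DSS. The call in DAPP before DSS was also lost with the lowest-mean probes (0.0659), with the pancreas markers as a covariate (0.0637) and with only the groups compared (0.142). The call in DAPP during DSS held without each array. Of 72 tested subunits of the respiratory chain and ATP synthase, which mitoribosomes serve, 1 (1.39%) was lower than control in each of the same groups. This was Cox7a1, the muscle form of a cytochrome oxidase subunit, likewise named after its values were seen, at -1.64, -1.53 and -1.16 with limma adjusted p of 0.00283, 0.00526 and 0.0263, of which the last was lost when any 1 control array or the second DSS array was left out, with equal array medians (0.0544), with the pancreas markers as a covariate (0.101) and with only the groups compared (0.0545). DAPP before DSS minus control was -0.94 for Rpl22 and -1.79 for Cox7a1 without the group's first array. The smooth muscle markers given above were also lower in these groups. Of 6 skeletal muscle markers 4 could be tested, and 1, Ckm, was called lower in each of these groups (25%). The skeletal muscle medians against control were 0.07 for DAPP before DSS (-0.24 without its first array), -0.05 for DAPP during DSS and -0.20 for DSS. The part of either marker list in the values of Rpl22 and Cox7a1 was not tested. The medians of DSS minus control were -0.01 for cytosolic ribosomal proteins and -0.09 for respiratory chain subunits, beside 0.01 for the mitoribosome.

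In these lists as in the family, leaving out the first DAPP before DSS array changed the calls against control, with 12.9% of all genes called for DAPP before DSS, 14.4% for DAPP during DSS and 12.8% for DSS. Among translation factors Rmnd1 was then called in all 3 comparisons. Among synthetases Rars2 was called for DAPP before DSS, and Fars2 for DAPP during DSS and for DSS. Among transcription, ribosomal RNA and assembly genes 5 were called for DAPP before DSS, which were Mterf1a, Mterf1b, Mterf2, Mterf3 and Tefm, 3 for DAPP during DSS, which were Mrm1, Mterf2 and Tefm, and 2 for DSS, which were Ddx28, higher, and Mrm1. Rpl21 joined Rpl22 in both DAPP groups, Ndufa1 joined Cox7a1 for DAPP before DSS, and Atp5k, which was higher, joined it for DSS. All the other calls in these lists were lower than control. Genes of this paragraph not described above were named after their values were seen.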

How the data were processed

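Biotinylated cRNA from colon RNA was hybridised to 12 Illumina bead arrays, grouped by treatment label. The authors deposited a signal intensity, on a linear scale and not normalised, with a detection p-value beside it per the file headers, for 45281 probes on each array. A further 1949 lines were blank, and 0 sample columns were unused. Arrays were summarised in GenomeStudio, per the submitters' processing notes, whose version and background handling the sources used here do not give. The authors' deposited processed intensity values of the same arrays were an alternative.

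Intensities were background-corrected from signals and detection p-values, given an offset of 16, quantile-normalised and log2-transformed with neqc (R 4.3.3, limma 3.58.1). Probes were named through the platform table (34885 with 1 symbol, 18 with several, 10378 with none), and 34807 matched a RefSeq gene table of GRCm38.p6, the source of the promoter sequences. Of several kept probes the one with the highest mean stood for the gene. All 11933 genes and 12 arrays entered a linear model of the 4 groups (lmFit, eBayes, 8 residual and 3.95 prior degrees of freedom), with p-values adjusted by Benjamini-Hochberg over all genes. The steps were tested on simulated data.

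The members and lists were chosen with earlier results of these data known. Members named were those called, the 6 with the lowest F-test p, the 5 most positive and 5 most negative for DSS minus control among members detected on all 12 arrays, those with chosen roles, and those with the highest and lowest mean in each subunit. Mrpl45 was among the roles but had no kept probe. Alternatives were no background correction, an offset of 50, the authors' values, equal medians, other detection filters and probe rules, array weights, a pancreas marker covariate, a replicate block, only the groups compared, and each array left out.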

Additional observations from a re-analysis of the deposited data

How the results depend on the processing

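Counts of called members with DSS minus control, DAPP before DSS minus DSS, DAPP during DSS minus DSS and DAPP before DSS minus DAPP during DSS were 0 in limma under every alternative run, except 1 for DSS minus control without the first DAPP before DSS array (12.8% of all genes called). Over these alternatives the share of all genes called was 3.6% to 12.8% for DSS minus control. It was at most 0.00838% for the other comparisons just named. For DAPP before DSS minus control the count, 0 as reported, was 4 with no background correction (11.2% of all genes called) and 4 with the authors' processed values (11.3%). It was 2 with an offset of 50 (11.3%) and 2 with array weights (14.6%). It was 1 each with no detection filter (6.6%) and with a limit of 0.01 on every array for detection (10.8%). For DAPP during DSS minus control the count, 1 as reported (7.68% of all genes called), was 2 with no background correction (7.87%) and 2 with the authors' values (7.89%). It was 7 with array weights (28.4%) and 4 with only the groups compared (19.7%). It was 0 with equal medians (8.07%) and 0 with the lowest-mean probe (5.88%). The F test called 4 members with array weights, a setting for which its share over all genes was not counted. Samples with the same replicate number did not deviate together (correlations over 18 pairs of -0.321 to 0.397, median 0.0255, against a median of 0.031 over 36 pairs with different numbers), and with a replicate block 0 members were called for DAPP during DSS minus control (7.5% of all genes), where Mrps9 had an adjusted p of 0.0588 in limma. Among the other called genes the block ended the calls of Rpl22 in DSS minus control (0.0514) and in DAPP before DSS minus control (0.0698). With each array left out, the counts ranged from 0 to 1 for DSS minus control, 0 to 2 for DAPP before DSS minus control, 0 to 4 for DAPP during DSS minus control and 0 to 2 for the F test. The shares of all genes called in these fits were 3.6% to 12.8%, 6.5% to 12.9% and 3.71% to 14.4% for the comparisons in that order. For the F test the share was 11.3% without the first DAPP before DSS array and was not counted for the other arrays. The member medians ranged from -0.04 to 0.12 for DSS minus control, -0.21 to 0.09 for DAPP before DSS minus DSS, -0.21 to -0.03 for DAPP during DSS minus DSS, -0.13 to 0.06 for DAPP before DSS minus control, -0.15 to 0.01 for DAPP during DSS minus control and -0.09 to 0.19 for DAPP before DSS minus DAPP during DSS. With equal medians the last was 0.21, where the median of all genes was 0.12, so that members lay 0.09 above it, and in DAPP during DSS minus control all genes were at -0.13 and members 0.05 below them. Mrps9 in DAPP during DSS minus control kept its sign in all 24 alternatives and lost its call in 9, with adjusted p in limma of 0.00182 to 0.128. Rmnd1 in DAPP before DSS minus control turned to 0.12 with the lowest-mean probe. Fewer arrays enter the fits with an array left out or with only the groups compared, and for the other settings the cause was not tested.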
